A study of Mus musculus with 6 samples.

Results

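The 8 genes described here, Tyr, Tyrp1, Dct, Pmel, Mlana, Sox10, Mitf and Kit, are standard markers of melanocytes, the pigment cells of skin, and were read on arrays of cultured mouse keratinocytes. They were taken by name, as the probe sets of the deposited value table annotated to 1 of these symbols alone, with the brightest probe set where a gene had several, and all 8 were found among the 19938 genes measured. Keratinocytes were isolated from the skin of C57BL/6 embryos at E18.5, labelled female, and kept in culture for 2 to 5 days without calcium. RNA was hybridised to 6 one-colour Affymetrix arrays, 2 for each of 3 groups, with the RNA of 2 mice on each array. The Ovol1/2 DKO group was Ovol1-/- and Ovol2flox/-;K14-Cre. Its floxed Ovol2 allele was to be removed by a recombinase whose K14 promoter is active in keratinocytes. By this label its other Ovol2 allele and its Ovol1 alleles are germline null ones. The group labelled Ovol1 KO was Ovol1-/-, and the control group was Ovol2flox/+ with either Ovol1+/- or K14-Cre, so its mice carried 1 or more altered alleles too. Ovol1 and Ovol2 are zinc finger transcription factors of epithelia.

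Melanocytes come from the neural crest and settle in the epidermis and hair follicles, so a few can be carried along when keratinocytes are isolated from skin. They make melanin in melanosomes. Tyr, tyrosinase, catalyses the first steps, and the related enzymes Tyrp1 and Dct act later. Pmel forms the fibrils on which the pigment is laid down, and Mlana is a melanosome membrane protein. Sox10 and Mitf are transcription factors of the lineage, with Mitf binding the pigment genes, and Kit is the receptor for the growth factor Kitl, which keratinocytes release. Kit and Mitf are also used by mast cells and Sox10 by Schwann cells. In bulk RNA, fewer cells of a type and less RNA per cell cannot be told apart.

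Mitf is known to bind a short element, the M-box, in the promoters of the pigment enzymes. The promoters of Tyr, Tyrp1 and Dct are shown because these 3 enzyme genes are the classic carriers of that element. The RefSeq table of the mouse assembly GRCm38.p6 held promoters for 5 of the 8 genes (Tyr, Tyrp1, Dct, Mitf and Kit). The 250 bases before each start were searched on both strands for TCATGTG, the core of the element, whose reverse complement is CACATGA. It was present in 3 of the 5 genes, and in 3.72% of all 27025 genes of the table. Counted by promoter, 3.25% of all 32851 held it. As the element was already known from Tyr, Tyrp1 and Dct, the count among the 5 genes is no test of enrichment. In the sequences, read 5′ to 3′ along the gene, capitals mark each match.
Tyr, chr7:87493513-87493762, minus strand: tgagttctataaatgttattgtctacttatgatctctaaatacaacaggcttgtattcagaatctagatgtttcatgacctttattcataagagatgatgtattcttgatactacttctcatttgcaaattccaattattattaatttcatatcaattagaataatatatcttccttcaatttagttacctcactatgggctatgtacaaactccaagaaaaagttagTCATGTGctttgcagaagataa
Tyrp1, chr4:80833963-80834212, plus strand: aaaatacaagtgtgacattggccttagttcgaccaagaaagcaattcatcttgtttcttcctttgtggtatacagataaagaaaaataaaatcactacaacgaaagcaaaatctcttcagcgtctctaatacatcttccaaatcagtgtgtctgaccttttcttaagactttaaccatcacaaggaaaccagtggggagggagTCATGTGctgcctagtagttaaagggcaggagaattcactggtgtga
Dct, chr14:118052247-118052496, minus strand: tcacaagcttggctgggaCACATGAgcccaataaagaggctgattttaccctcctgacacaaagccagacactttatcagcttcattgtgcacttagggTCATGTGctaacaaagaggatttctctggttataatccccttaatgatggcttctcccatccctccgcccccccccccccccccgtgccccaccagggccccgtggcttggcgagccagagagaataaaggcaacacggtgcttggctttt

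The match lay 22 to 16 bases before the RefSeq start in Tyr, 47 to 41 bases before it in Tyrp1, and 151 to 145 bases before it in Dct, which held another match on the opposite strand at 232 to 226 bases. Around the sense-strand match the 3 promoters read as follows, with 10 bases on either side.
Tyr: aaaaagttagTCATGTGctttgcagaa
Tyrp1: ggggagggagTCATGTGctgcctagta
Dct: gcacttagggTCATGTGctaacaaaga
All 3 shared the longer stretch GTCATGTGCT, found in 0.155% of the promoters of the table, and Tyr and Tyrp1 shared AGTCATGTGCT, found in 0.0213%. These longer stretches were compared after the sequences had been seen. The windows used for Mitf (3 starts) and Kit (2 starts) did not hold TCATGTG. A match is a run of letters and not a measurement of binding, and the arrays did not measure binding.

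The arrays were first read for their labels. Ovol1 was at 5.96 and 6.22 in Ovol1/2 DKO, at 10.75 and 9.80 in the labelled Ovol1 KO arrays and at 9.64 and 9.95 in control (log2 of intensity + 16, the scale of every level below), so the label Ovol1 KO was not borne out by its signal. The same probe set was low in Ovol1/2 DKO, which is also labelled Ovol1-/-, and why the groups differ in it was not tested. Ovol2 read 7.63 and 7.50 in Ovol1/2 DKO, 7.88 and 8.38 in labelled Ovol1 KO, and 8.37 and 6.97 in control. Ovol1/2 DKO and control overlapped, so the removal of Ovol2 was not borne out by its signal. Where the Ovol2 probe set lies relative to the deleted part is not known here. Xist, which coats the inactive X, was at 4.54 in replicate 1 labelled Ovol1 KO and at 4.43 in control replicate 1, and between 10.99 and 11.43 on the other 4 arrays, although all 6 samples carry a female label. The Y-linked gene Eif2s3y was at 13.80 in replicate 1 labelled Ovol1 KO and at 4.85 in control replicate 1, so the 2 arrays without Xist signal differed in it. All 10 keratinocyte markers lay above 6.20 on every array, as did 7 of 9 fibroblast markers and 7 of 8 Schwann cell markers. Lying above 6.20 thus does not by itself set cell types apart. That value is the highest array median of the 12146 unnamed probe sets, and it serves here as a guide to background. On replicate 1 this median was 6.20 in Ovol1/2 DKO, 6.12 in labelled Ovol1 KO and 6.16 in control. On replicate 2 it was lower, at 5.89, 5.93 and 5.93, so a replicate 2 reading under 6.20 can exceed its own array's median. Levels of different probe sets are not set against each other. Krt14 and Krt5, keratins of the basal layer, read 13.21 to 13.39 and 13.39 to 13.55 over the 6 arrays.

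The pigment enzyme Tyrp1 read 6.99 and 5.99 in Ovol1/2 DKO, 7.74 and 6.42 in the labelled Ovol1 KO arrays, and 8.18 and 8.28 in control. On the linear scale these were intensities of 111.4 and 47.4 in Ovol1/2 DKO, 197.8 and 69.5 in labelled Ovol1 KO, and 273.2 and 294.9 in control. All 4 arrays of Ovol1/2 DKO and labelled Ovol1 KO were thus below both control arrays, and replicate 2 of Ovol1/2 DKO was under the background guide. Group means were 6.49 ± 0.71 in Ovol1/2 DKO, 7.08 ± 0.93 in the labelled Ovol1 KO arrays and 8.23 ± 0.07 in control (SD, n = 2 each).

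Dct, the enzyme that converts dopachrome, read 6.96 and 5.99 in Ovol1/2 DKO, 7.46 and 5.39 in the labelled Ovol1 KO arrays, and 8.01 and 7.86 in control. Again all 4 arrays of Ovol1/2 DKO and labelled Ovol1 KO were below both control arrays. Replicate 2 of both these groups was under the background guide, so the order of those readings has no meaning. The differences given further on rest in part on them. Against its own array's median, replicate 2 of Ovol1/2 DKO lay just above (5.99 against 5.89) and that of labelled Ovol1 KO below (5.39 against 5.93).

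Pmel read 6.65 and 5.85 in Ovol1/2 DKO, 7.19 and 6.15 in the labelled Ovol1 KO arrays, and 7.37 and 7.34 in control. Like Tyrp1 and Dct, it was lower on every Ovol1/2 DKO and labelled Ovol1 KO array than in control, where the arrays lay close together. As for Dct but not Tyrp1, replicate 2 of both Ovol1/2 DKO and labelled Ovol1 KO was under the background guide. Against its own array's median, replicate 2 of labelled Ovol1 KO lay above (6.15 against 5.93) and that of Ovol1/2 DKO just below (5.85 against 5.89). The annotation placed Pmel on 15 further probe sets shared with other symbols, and these were not used.

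Tyr was at 5.40 and 4.53 in Ovol1/2 DKO, 5.16 and 4.30 in the labelled Ovol1 KO arrays, and 5.70 and 4.98 in control. All 6 readings were under the background guide and the groups overlapped, so tyrosinase itself was not seen above background on these arrays. Mlana was at 7.24 and 6.80 in Ovol1/2 DKO, 6.92 and 6.97 in the labelled Ovol1 KO arrays, and 7.10 and 7.17 in control. It spanned only 0.44 over the 6 arrays, against 2.29 for Tyrp1, 2.62 for Dct and 1.52 for Pmel.

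Of the transcription factors, Mitf read 6.50 and 6.67 in Ovol1/2 DKO, 7.93 and 7.41 in the labelled Ovol1 KO arrays, and 7.28 and 7.79 in control. Both Ovol1/2 DKO arrays were below all 4 others, while the labelled Ovol1 KO arrays and control overlapped. Mitf is made from several promoters, not all of them melanocytic, and which transcripts the probe set reads is not known here. A dimmer probe set of Mitf was at 4.45 to 4.81 on all 6 arrays, below the background guide, and with the mean of both probe sets the difference from control given further on was -0.55 in place of -0.95 for Ovol1/2 DKO.

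Sox10 read 7.77 and 8.18 in Ovol1/2 DKO, 7.78 and 8.61 in the labelled Ovol1 KO arrays, and 7.74 and 8.22 in control. The groups overlapped fully, and replicate 2 was the higher array in each. The receptor Kit was at 6.29 and 6.29 in Ovol1/2 DKO, 6.65 and 6.46 in the labelled Ovol1 KO arrays, and 6.08 and 6.48 in control. These levels lay close to the background guide and spanned 0.58.

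**Figure D1:**
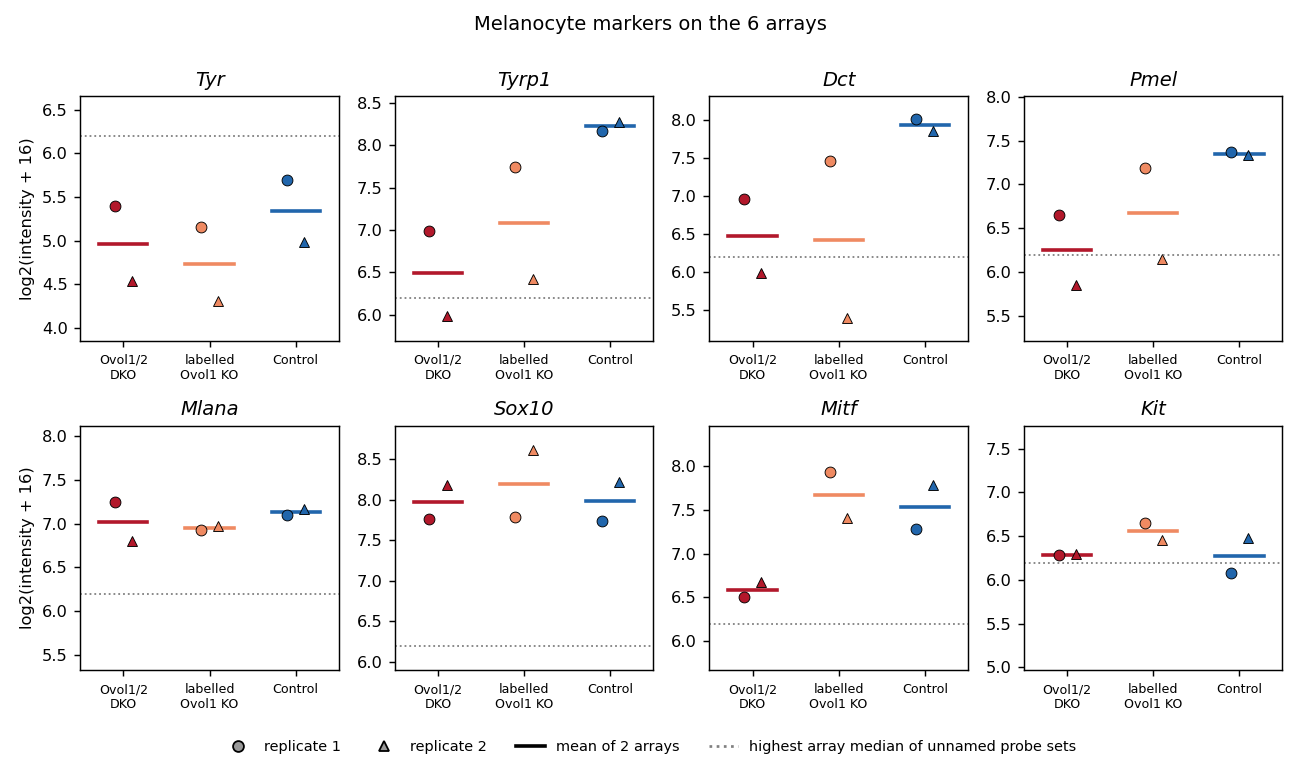
Level of each melanocyte marker, as log2(intensity + 16) on the y axis, on the 2 arrays of each group along the x axis (circle, replicate 1; triangle, replicate 2; bar, group mean; dotted line, background guide at 6.20). Tyrp1, Dct and Pmel lie below both control arrays on all 4 arrays of Ovol1/2 DKO and labelled Ovol1 KO. Mitf is lowest in Ovol1/2 DKO, Tyr is under the guide on every array, and Mlana, Sox10 and Kit overlap between Ovol1/2 DKO and control.

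By group mean, Tyrp1 and Pmel stood lowest in Ovol1/2 DKO, next in the labelled Ovol1 KO arrays and highest in control. For Dct, Ovol1/2 DKO and the labelled Ovol1 KO arrays were level, at 6.47 ± 0.69 and 6.43 ± 1.46, with control at 7.94 ± 0.11 (SD, n = 2 each). Ovol1/2 DKO and labelled Ovol1 KO overlapped each other for all 3 genes, so their order holds no further than the means. For Mitf the means were 6.59 ± 0.12 in Ovol1/2 DKO, 7.67 ± 0.37 in labelled Ovol1 KO and 7.53 ± 0.36 in control, and the last pair overlapped.

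The first test compared Ovol1/2 DKO with control, whose genotype labels differ in both factors, though the Ovol2 signal overlapped between them. One linear model over all genes and all 6 arrays was used (limma, with Benjamini-Hochberg adjustment over 19938 genes and a threshold of 0.05 on the adjusted p). None of the 8 genes passed, where 2.02% of all genes did. Tyrp1 had a log2 difference of -1.74 (SE 0.49, 95% interval -2.91 to -0.57, limma adjusted p = 0.199). Mitf had -0.95 (SE 0.27, -1.60 to -0.29, limma adjusted p = 0.212), and Pmel had -1.11 (SE 0.40, -2.07 to -0.14, limma adjusted p = 0.367). Dct had -1.46 (SE 0.65, -3.02 to 0.10), an interval that reaches past 0.

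Tyrp1, Mitf and Pmel, 3 of the 8 genes, had an unadjusted p under 0.05, against 10.4% of all genes. In 4 of the 8 (Tyrp1, Dct, Pmel and Mitf) both Ovol1/2 DKO arrays were below both control arrays, against 18.1% of all genes. The median difference of the 8 genes was -0.66, beside 0.03 over all genes. Tyr, Mlana, Sox10 and Kit differed by -0.37, -0.11, -0.01 and 0.01. Their intervals ran from -0.64 to 0.41 for Mlana, from -0.82 to 0.80 for Sox10 and from -0.51 to 0.54 for Kit, so changes within those bounds cannot be told from none.

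The arrays without Xist signal bear on this comparison through control replicate 1. With both of them left out, which was decided on once the signals were known, Tyrp1 (log2 difference -1.79, SE 0.40, limma adjusted p = 0.0367) and Mitf (-1.20, SE 0.26, limma adjusted p = 0.0306) passed, while Dct (-1.39, adjusted p = 0.0898) and Pmel (-1.09, adjusted p = 0.137) did not. That fit keeps 1 control and 1 labelled Ovol1 KO array, both assumed to vary like the Ovol1/2 DKO pair, which alone gives the spread between arrays, and it called 1395 of all genes against 403 with every array. The sizes of Tyrp1 and Pmel were close to those with all arrays.

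The second test set the labelled Ovol1 KO arrays against control. Here 0% of all genes passed, at any difference, and 0.767% had an unadjusted limma p under 0.05, none of them among the 8. Dct had a log2 difference of -1.51 (SE 0.65, -3.07 to 0.05), Tyrp1 of -1.15 (SE 0.49, -2.32 to 0.02) and Pmel of -0.68 (SE 0.40, -1.65 to 0.28), with a limma adjusted p of 0.999 for each. In 4 of the 8 (Tyrp1, Dct, Pmel and Mlana) both labelled Ovol1 KO arrays were below both control arrays, against 10.3% of all genes. These are the same control arrays as in the first test. Mitf (0.14), Sox10 (0.22) and Kit (0.28) had positive differences with intervals that span 0.

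Replicate 1 labelled Ovol1 KO, which lacked Xist signal, was the higher of its group for Tyrp1, Dct and Pmel. Without it Dct differed from control by -2.55 and Tyrp1 by -1.81, and without replicate 2 labelled Ovol1 KO they differed by -0.48 and -0.49. A single array thus set the size of both, and neither passed either way.

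The third test set Ovol1/2 DKO against the labelled Ovol1 KO arrays, where 3.15% of all genes passed and none of the 8 did. Mitf had a log2 difference of -1.08 (SE 0.27, -1.74 to -0.43, limma adjusted p = 0.111) and was the only 1 of the 8 with an unadjusted p under 0.05, against 14.1% of all genes. Tyrp1 (-0.59, interval -1.76 to 0.58), Pmel (-0.42, -1.38 to 0.54) and Dct (0.05, -1.51 to 1.61) had wide intervals around small differences.

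**Figure D2:**
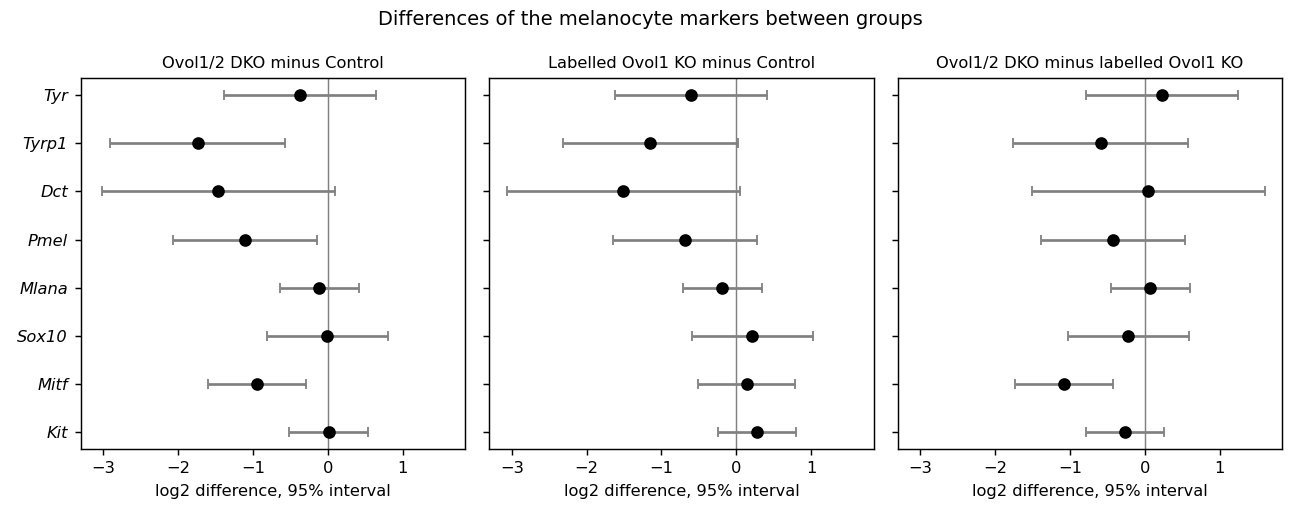
Log2 difference (x axis) of each marker (y axis) in the 3 comparisons, as points with 95% intervals of the limma fit before any adjustment for the number of genes. The intervals of Tyrp1, Pmel and Mitf lie below 0 for Ovol1/2 DKO minus Control and that of Mitf for Ovol1/2 DKO minus labelled Ovol1 KO, and no gene passed after adjustment over 19938 genes.

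The 2 arrays of a group differed for the pigment genes in a way the genotype labels do not give. In Ovol1/2 DKO, replicate 2 minus replicate 1 was -1.01 for Tyrp1, -0.97 for Dct and -0.80 for Pmel. In the labelled Ovol1 KO arrays the same differences were -1.32, -2.07 and -1.04. In control they were 0.10, -0.15 and -0.02. Within labelled Ovol1 KO these differences were larger than the group's differences from control for each gene. Within Ovol1/2 DKO they were smaller than its differences from control but larger than its differences from labelled Ovol1 KO. The tests above carry this spread. The array medians of the unnamed probe sets, which the background guide is taken from, were also lower on replicate 2 of each group. Tyr was lower in replicate 2 of all 3 groups (by -0.86 in Ovol1/2 DKO, -0.86 in labelled Ovol1 KO and -0.72 in control), below the background guide.

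**Figure D3:**
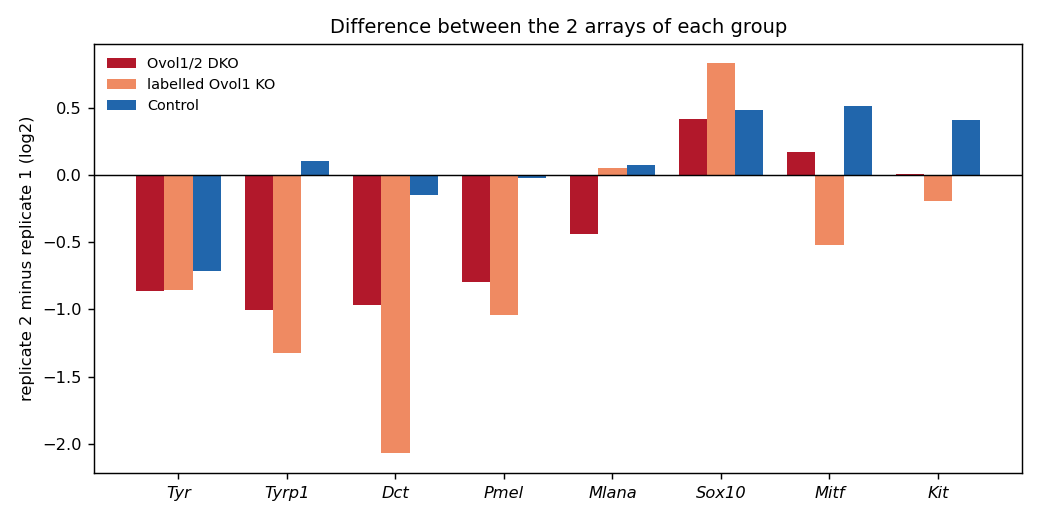
Replicate 2 minus replicate 1 (log2, y axis) for each marker (x axis), with a bar for each group. Tyrp1, Dct and Pmel are lower on replicate 2 in Ovol1/2 DKO and labelled Ovol1 KO and nearly level in control. Sox10 is higher on replicate 2 in every group.

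Tyrp1, Dct and Pmel moved together from array to array. Over the 6 arrays Pearson's r was 0.99 between Tyrp1 and Pmel (Spearman's rho 0.94), 0.94 between Dct and Pmel (0.94) and 0.93 between Tyrp1 and Dct (0.89). These are descriptions over arrays that share genotype groups and replicate numbers. Their summed intensity was 303.9 and 136.6 in Ovol1/2 DKO, 488.2 and 150.4 in the labelled Ovol1 KO arrays, and 664.3 and 657.7 in control. Mlana followed them less closely (r 0.52 to 0.56 with the 3 genes). Mitf gave r of 0.62 with Tyrp1, 0.61 with Pmel and 0.38 with Dct, and Sox10 gave negative values from -0.71 to -0.48.

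The genes whose pattern was most like the mean of Tyr, Tyrp1, Dct, Pmel and Mlana over the 6 arrays were sought among 3248 genes with a range of 1 or more and a mean level no lower than 7.56, the median over all genes. They were Ccdc112 (r 0.94), the haem synthesis enzyme Cpox (0.94), the epithelial chloride channel regulator Clca2 (0.91), Cbwd1 (0.90) and the mitochondrial enzyme Pde12 (0.90). Each spanned between 1.04 and 1.25 over the arrays. Only 4 of the 3248 genes had an r over 0.9. The limits on level and range left out Tyrp1, Dct and Pmel themselves and, of the other pigment cell genes, all but Gpnmb and Rab38.

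Other genes of pigment cells did not pass, as was true of most genes. Over all genes, 2.02% passed for Ovol1/2 DKO against control and 0% for labelled Ovol1 KO against control. For Ovol1/2 DKO against labelled Ovol1 KO it was 3.15%, and these shares stand beside the counts of every list below. Of 11 listed, among them the melanosome transporters Slc45a2, Slc24a5 and Oca2 and the receptors Mc1r and Ednrb, none passed in any comparison, and 3 were at or under the background guide on all 6 arrays. Their median difference was -0.04 for Ovol1/2 DKO minus control, beside 0.03 over all genes. Both Ovol1/2 DKO arrays were below both control arrays in 3 of these 11 genes, against 18.1% of all genes, and above both in 1. The brightest by mean level were Gpnmb, a lysosome and melanosome glycoprotein that other cells also make, at 9.57 and 10.54 in Ovol1/2 DKO, 9.62 and 9.61 in the labelled Ovol1 KO arrays and 9.26 and 9.89 in control, and Rab38, a small GTPase that carries Tyr and Tyrp1 to melanosomes, at 9.16 and 8.95 in Ovol1/2 DKO, 10.17 and 8.95 in labelled Ovol1 KO, and 9.72 and 8.92 in control. The groups overlapped for both. The endothelin receptor Ednrb, which melanocyte precursors need, was at 5.64 and 5.85 in Ovol1/2 DKO, 6.13 and 5.75 in the labelled Ovol1 KO arrays and 6.50 and 5.97 in control, around the background guide.

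Of 20 genes of melanosome biogenesis and transport, most of them used by many cell types, Atp7a fell in Ovol1/2 DKO. Atp7a is a copper pump that loads tyrosinase, among other enzymes, with copper. It read 7.997 and 8.28 in Ovol1/2 DKO, 10.31 and 9.63 in the labelled Ovol1 KO arrays, and 9.98 and 10.04 in control, with no overlap between Ovol1/2 DKO and the rest. The log2 difference was -1.87 against control (SE 0.27, limma adjusted p = 0.0266) and -1.84 against labelled Ovol1 KO (SE 0.27, limma adjusted p = 0.0204), and the other 19 genes did not pass. The call against control was lost without any 1 of the 4 arrays compared. That against labelled Ovol1 KO was lost without either Ovol1/2 DKO array or without replicate 1 labelled Ovol1 KO. Each such fit leaves 1 array in a group. Over the 16 settings tried, the difference stayed between -2.01 and -1.71 against control. Against labelled Ovol1 KO it stayed between -2.18 and -1.50. With an offset of 64 in place of 16, both Atp7a calls were lost (limma adjusted p = 0.0650 and 0.0507).

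Of 9 measured ligands that act on melanocytes, Kitl, the ligand of Kit, rose in Ovol1/2 DKO against labelled Ovol1 KO. It read 9.63 and 9.69 in Ovol1/2 DKO, 7.93 and 6.92 in the labelled Ovol1 KO arrays, and 8.51 and 7.50 in control. Both Ovol1/2 DKO arrays were above the other 4. The log2 difference was 2.23 against labelled Ovol1 KO (SE 0.43, limma adjusted p = 0.0481), close to the threshold, and 1.65 against control (SE 0.43, adjusted p = 0.162), which did not pass except without both arrays lacking Xist signal (2.16, limma adjusted p = 0.00184). Without any 1 of the 4 arrays compared, which leaves 1 array in a group, the Kitl call against labelled Ovol1 KO was lost. That call was also lost with quantile normalization (limma adjusted p = 0.0569) and with an offset of 64 (0.0953). The difference behind it stayed between 1.73 and 2.74 over the 16 settings. The other 8 ligands did not pass in any comparison.

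Among them, and chosen after their values were seen, Edn1, an endothelin that stimulates melanocytes, was at 10.17 and 10.43 in Ovol1/2 DKO, 11.06 and 11.70 in the labelled Ovol1 KO arrays and 11.80 and 11.45 in control (difference from control -1.32, SE 0.28, limma adjusted p = 0.0840). Csf2, a cytokine of keratinocytes that also acts on melanocytes, was at 4.85 and 4.43 in Ovol1/2 DKO, 6.82 and 10.17 in the labelled Ovol1 KO arrays and 9.01 and 9.87 in control. Both Ovol1/2 DKO readings of Csf2 were under the background guide, so its difference is known only as a bound and moved from -6.16 to -3.35 over the 16 settings. For both genes the Ovol1/2 DKO arrays were below all others, and neither passed against control (limma adjusted p = 0.0737 for Csf2). Csf2 passed against control in 7 of the 16 settings, and Edn1 in 1, without both arrays lacking Xist signal (limma adjusted p = 0.0410).

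**Figure D4:**
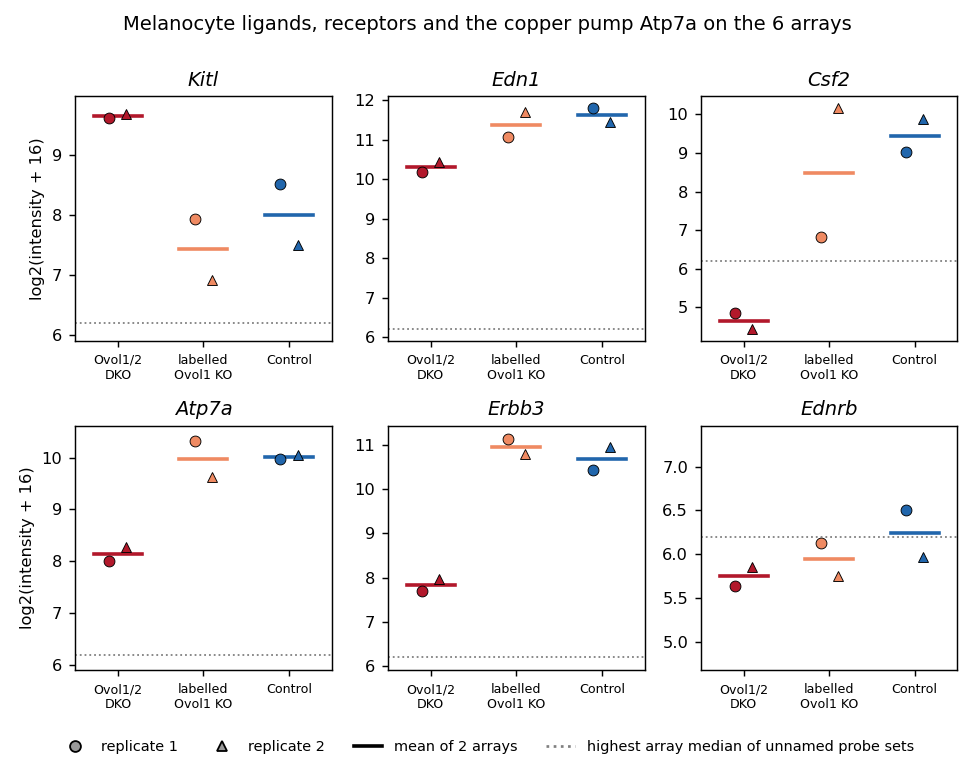
Levels, as log2(intensity + 16) on the y axis, of the ligands Kitl, Edn1 and Csf2, the copper pump Atp7a and the receptors Erbb3 and Ednrb on the 2 arrays of each group along the x axis (symbols as in the plot of marker levels, dotted line at 6.20). Kitl is higher and Edn1, Csf2, Atp7a and Erbb3 are lower on both Ovol1/2 DKO arrays than on the other 4, and Ednrb stays near the guide.

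Of 11 further transcription factors of the lineage and of the Mitf family, none passed. The brightest, both also made by keratinocytes, were Snai2, at 12.03 and 11.70 in Ovol1/2 DKO, 11.26 and 10.90 in the labelled Ovol1 KO arrays and 11.84 and 11.03 in control, and Sox9, at 10.91 and 10.94 in Ovol1/2 DKO, 11.44 and 11.70 in labelled Ovol1 KO, and 12.00 and 11.57 in control. Pax3, which acts with Sox10 upstream of Mitf, stayed between 6.58 and 7.03 on all 6 arrays.

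Cell types that share markers with melanocytes were read beside them. For Schwann cells, which use Sox10, 8 listed genes were used here. Their summed intensity was 1746 and 1841 in Ovol1/2 DKO, 5907 and 4235 in the labelled Ovol1 KO arrays and 3773 and 4656 in control. Erbb3, Mbp and Egr2, picked out after their values were seen, held that difference: the other 5 genes summed to 807.6 and 891.1 in Ovol1/2 DKO, 792.8 and 1164 in labelled Ovol1 KO, and 839.9 and 968.7 in control. One of the 8 fell: Erbb3, a neuregulin receptor that keratinocytes also make, at 7.69 and 7.97 in Ovol1/2 DKO, 11.14 and 10.79 in the labelled Ovol1 KO arrays and 10.43 and 10.95 in control (log2 difference from control -2.86, SE 0.26, limma adjusted p = 0.00755, and from labelled Ovol1 KO -3.13, SE 0.26, limma adjusted p = 0.00504). S100b, a glial and melanocytic calcium-binding protein, was at 7.85 and 8.41 in Ovol1/2 DKO, 7.86 and 8.69 in labelled Ovol1 KO, and 7.66 and 8.19 in control, so that like Sox10 it was higher on replicate 2 of each group.

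For mast cells, which use Kit and Mitf, 9 of 10 genes were measured, 5 were at or under the background guide on all 6 arrays, and none passed. Their summed intensity was 502.7 and 473.7 in Ovol1/2 DKO, 444.2 and 525.0 in the labelled Ovol1 KO arrays and 422.0 and 502.5 in control. The mast cell protease Cpa3 did not exceed 6.13 on any array, and the brightest were Gata2, at 6.77 to 7.34, and Hdc, at 6.17 to 6.83. Gata2 was the only 1 of the 9 above the background guide on all 6 arrays.

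Of 9 measured fibroblast markers, Thy1 rose in Ovol1/2 DKO (1.67 against control, SE 0.22, limma adjusted p = 0.0187; 1.90 against labelled Ovol1 KO, SE 0.22, limma adjusted p = 0.0106) and the other 8 did not pass. Postn, a matrix protein of fibroblasts, passed with the replicate number as a block. Its difference was 2.22 against control (limma adjusted p = 0.0434) and 2.04 against labelled Ovol1 KO (limma adjusted p = 0.0399). Postn read 6.62 and 8.65 in Ovol1/2 DKO, 5.04 and 6.15 in labelled Ovol1 KO, and 5.18 and 5.65 in control. All its readings outside Ovol1/2 DKO were under the background guide, so the sizes of these differences are uncertain. The first Thy1 call was lost without either Ovol1/2 DKO array (limma adjusted p = 0.110 and 0.141) or without control replicate 2 (0.0962), and the second without either Ovol1/2 DKO array (0.0630 and 0.0780) or without replicate 1 labelled Ovol1 KO (0.0502). The summed fibroblast intensity was 1746 and 2485 in Ovol1/2 DKO, 1031 and 1690 in the labelled Ovol1 KO arrays and 971.4 and 1686 in control. It was higher on replicate 2 of each group, the arrays on which Tyrp1, Dct and Pmel were lower in Ovol1/2 DKO and labelled Ovol1 KO. Its part in the pigment gene values was not tested.

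Among the 10 keratinocyte markers, the desmosomal cadherin Dsg3 fell in Ovol1/2 DKO (-1.25 against control, SE 0.21, limma adjusted p = 0.0402; -1.20 against labelled Ovol1 KO, limma adjusted p = 0.0351) and Trp63, the master factor of basal keratinocytes, rose against labelled Ovol1 KO (1.097, SE 0.21, limma adjusted p = 0.0464). Dsg3 lost its call against control without any 1 of the 6 arrays, and against labelled Ovol1 KO without any 1 of the 4 arrays compared. Trp63 lost its call without any 1 of the 6 arrays. Each such fit leaves 1 array in a group. Over the 16 settings Dsg3 stayed between -1.40 and -1.09 against control and between -1.30 and -1.09 against labelled Ovol1 KO. Trp63 stayed between 0.96 and 1.24 against labelled Ovol1 KO. Fitted on the 2 groups compared alone, Dsg3 against control (limma adjusted p = 0.0522) and Trp63 against labelled Ovol1 KO (0.0553) did not pass, nor did they with an offset of 1 (0.0621 for Dsg3, 0.0733 for Trp63) or 64 (0.0551 for Dsg3, 0.0504 for Trp63). Dsg3 against labelled Ovol1 KO did not pass with an offset of 1 either (0.0552). The summed keratinocyte intensity stayed between 50469 and 55497 on all 6 arrays.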

How the data were processed

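The arrays measured 6 RNA samples, prepared with the Ambion WT expression kit and biotin label, per the labels' protocols. The authors deposited 1 linear intensity per probe set and array. The submitters' processing notes name Affymetrix Expression Console 1.1.1 and PLIER 2.0; other steps are not stated in what was used. Precision is limited by the number of arrays; array medians ran from 103.3 to 109.8.

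Of 35556 probe sets, 21789 had 1 gene symbol, 1621 several (not named here) and 12146 none. Symbols were updated by Entrez identifier through RefSeq, and the brightest probe set stood for the 999 genes with several. From log2(intensity + 16), 1 linear model over the 3 groups gave the comparisons (limma 3.58.1 in R 4.3.3), after a test on simulated data. For Ovol1/2 DKO minus control, that test had 100 genes changed 2-fold and 100 changed 4-fold. The fit called 9% of the former and 93% of the latter, so most changes of 2-fold would be missed. Differences on this scale understate changes of dim genes. The smallest two-sided p of an exact test of 2 arrays against 2 is 0.333, so the spread was pooled over genes. The labels call the arrays biological replicates.

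Members and lists were chosen with earlier results of these data known. Named were all 8 markers, up to 4 passing genes per list, otherwise its 2 brightest, and the 5 genes most alike. Other genes named were chosen after their values were seen. Alternatives tried were each array left out, a fit with replicate number as a block, separate fits per comparison, other scaling (quantile or median), offsets of 1 and 64, no dim genes, and averaged probe sets. Leaving out both arrays without Xist signal was added after the data were seen.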

Additional observations from a re-analysis of the deposited data

How the results depend on the processing

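None of the 24 differences of the 8 markers passed under any alternative but 1, and 2 of 357 recomputed values passed, both with the arrays without Xist signal left out. Tyrp1, Dct, Pmel and Mitf kept their negative difference for Ovol1/2 DKO minus control throughout, from -2.24 to -1.24, -1.95 to -0.98, -1.50 to -0.71 and -1.20 to -0.55, and so did Tyrp1, Dct and Pmel for labelled Ovol1 KO minus control.

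Small differences changed sign, in 23 of the 357 values. Leaving out 1 array at a time, Ovol1/2 DKO minus control ran from -0.80 to 0.057 for Tyr, -0.33 to 0.11 for Mlana, -0.25 to 0.23 for Sox10 and -0.19 to 0.21 for Kit. Labelled Ovol1 KO minus control ran from -0.20 to 0.63 for Sox10 and -0.12 to 0.40 for Mitf. Ovol1/2 DKO minus labelled Ovol1 KO ran from -0.20 to 0.66 for Tyr, -1.25 to 0.072 for Tyrp1, -0.99 to 1.08 for Dct, -0.94 to 0.10 for Pmel, -0.15 to 0.30 for Mlana and -0.64 to 0.19 for Sox10. With an offset of 64 Dct became -0.035 in that comparison. Without both arrays lacking Xist signal, it became 0.072 for Tyrp1 and 0.10 for Pmel; Kit became -0.19 for Ovol1/2 DKO minus control, and Mitf and Kit became -0.38 and -0.024 for labelled Ovol1 KO minus control. The cause was not tested.

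The count of all genes that passed moved with the arrays. For Ovol1/2 DKO against control (403) it was 99 to 455 leaving out 1 array, 155 with an offset of 64 and 1395 without both arrays lacking Xist signal. For labelled Ovol1 KO against control (0) it was 0 to 3 and 20 without those arrays. For Ovol1/2 DKO against labelled Ovol1 KO (628) it was 135 to 831, 311 with an offset of 64, 1508 without those arrays and 1022 with a replicate block. Replicate 1 deviations from group means correlated across genes at 0.49 between Ovol1/2 DKO and control and 0.26 between labelled Ovol1 KO and control. Between Ovol1/2 DKO and labelled Ovol1 KO the value was 0.19, but no label ties the replicate numbers to a litter or a day. With the replicate block, Ovol1/2 DKO against control gave 597 genes, including Csf2 (adjusted p = 0.0479), the small GTPase Rab32 (-1.37, adjusted p = 0.0468) and Postn (adjusted p = 0.0434) but none of the 8 markers, with Tyrp1 at an adjusted p of 0.0769. Erbb3 passed in all 16 settings. With dim genes left out, Tyr was not measured.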
